A study of Homo sapiens with 6 samples.

Results

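Parental NCI-H460 cells with PNAs-A15 were compared with scramble-treated and untreated cells on 3 of the 6 arrays of the series. They comprise 1 array of parental cells treated with PNAs-A15, 1 array of parental cells treated with a scramble control and 1 array of untreated parental cells. NCI-H460 is an established human non-small cell lung cancer line of the large cell type. All 3 cultures were of the wild-type line, grown in RPMI medium with fetal bovine serum. Treatment with PNAs-A15 lasted 6 h, and the labels give no other time for the scramble control. The labels explain neither the name PNAs-A15 nor its dose, nor do they describe the scramble control. The remaining 3 arrays hold cells of the same line enriched for cancer stem cells by growth as spheroids (CSC-rich), given PNAs-A15 (shortened to PNA in that label), scramble or nothing, and are used only where the parental result is set beside them. Each group had 1 array, so no difference below has a replicate or a test.

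RNA levels were read on Illumina HumanHT-12 BeadChips, to which labelled cRNA copies of the sample's RNA bind. On such an array a probe reads one short stretch of a transcript, and a gene may have several probes that lie on different transcript forms or at different places of one form. A messenger RNA level in bulk cells reflects both synthesis and decay, and transcripts with short half-lives, such as those of MYC, can move within hours. Signals are the deposited linear intensities. Differences are given on the log2 scale after background correction and quantile normalization of the 6 arrays. "Against the nearer control" means the PNAs-A15 level minus that of whichever control lay closer to it, and is 0 where the PNAs-A15 level lay between the controls. A probe entered if its detection p, which sets its signal against negative controls, lay below 0.05 on 2 or more parental arrays, as 19602 of 47323 probes did. Of these, 14911 carried 1 gene symbol, for 11340 genes, and 2918 genes were read by at least 2 kept probes. Both differences use the same PNAs-A15 array, so that a fault of that array would enter each of them.

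The PNAs-A15 array stood apart before any gene was examined. It detected 36.5% of all probes, against 42.8% on the scramble array and 42.5% on the untreated array, and its median signal was 129.8, against 151.6 with scramble and 145.0 untreated. Across kept probes it correlated with the scramble array at a Pearson r of 0.854 and with the untreated array at 0.853, while the 2 controls correlated with each other at 0.99. The other 5 arrays of the series correlated among themselves at 0.909 or above. RNA integrity values are not among the data used here, and the part of RNA quality or hybridisation in the results below was not tested. The defining epithelial marker KRT8 was bright, at 11288 with PNAs-A15, 10263 with scramble and 8462 untreated, whereas neither listed probe of KRT18 was detected on at least 2 parental arrays, nor were those of EPCAM, CDH1 and KRT7. Of the defining markers of other cells, PTPRC, CD3E, PECAM1, CDH5, SFTPB, SFTPC, SCGB1A1 and FOXJ1 were also below that limit.

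With PNAs-A15 many probes differed from both controls, in both directions. Against both controls, 3187 probes (16.3%) lay at least 2-fold higher and 3620 (18.5%) at least 2-fold lower. By gene, each read by its brightest kept probe, 2031 (17.9%) lay higher and 1744 (15.4%) lower. Brightness was taken over all parental arrays, PNAs-A15 included, a choice that favours probes not lowered there. With the mean of a gene's kept probes 1788 genes lay higher and 1907 lower. The probe brightest on the controls gave 1982 and 1860. Against single controls 20.1% of probes were higher and 21.4% lower than with scramble, and 19.6% higher and 21% lower than untreated. Scramble against untreated gave 167 probes (0.852%) at least 2-fold higher and 34 (0.173%) lower, and by gene 0.423% higher and 0.185% lower. The SD per control array was 0.243 on the log2 scale. It is that of the difference between the controls over kept probes, divided by the square root of 2. The SD of the difference itself is larger. In bulk RNA, fewer cells that express a gene and less of its RNA per cell cannot be told apart.

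**Figure D1:**
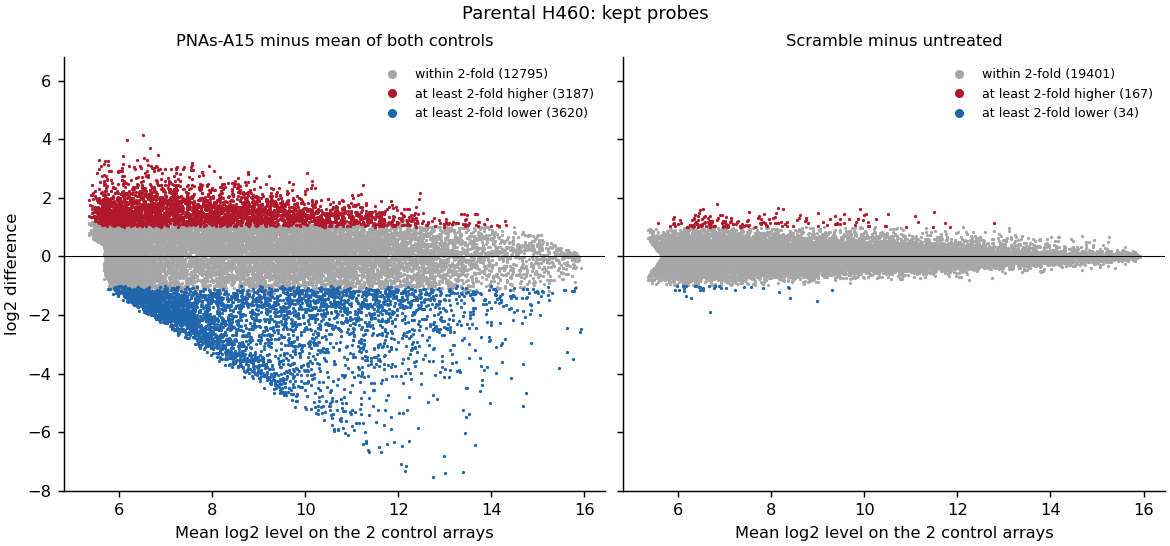
Each point is a kept probe of the parental arrays, with its mean log2 level on the 2 control arrays on the horizontal axis and a log2 difference on the vertical axis: PNAs-A15 minus the mean of both controls (left) and scramble minus untreated (right). Red and blue mark the 3187 and 3620 probes at least 2-fold higher and lower than both controls on the left, and the 167 and 34 probes at least 2-fold higher and lower on the right. The blue points run down to a slanted edge, where the PNAs-A15 level is at its floor.

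The higher and the lower calls did not rest on the deposited signals to the same degree. All 3620 lower probes also had a deposited signal below both controls, and 2980 of them had one at least 2-fold below. Of the 3187 higher probes, 2683 had a deposited signal above both controls, but 278 had one at least 2-fold above. With each array scaled to the same median in place of quantile normalization, the split was 1408 higher and 4970 lower. On deposited signals without correction or scaling it was 256 higher and 4396 lower. The median over all genes of PNAs-A15 minus the mean of both controls moved with the scaling too, at 0.226 after quantile normalization, -0.149 with median scaling and -0.399 on unscaled signals. Gene groups are therefore given relative to the median of all genes, and single genes that lay higher are mostly given with their deposited signals or unscaled differences. Under all 3 scalings, 2792 probes were lower and 256 higher.

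Lost signals can be counted without any scaling. Of 18666 probes detected on both parental controls, 3249 (17.4%) were not detected with PNAs-A15. The same count was 478 of 15895 (3.01%) for the scramble array and 458 of 15875 (2.89%) for the untreated array, each against the other 2 parental arrays. With the probes split into 10 equal groups by their level on the controls, 2534 of the 3249 lost probes were in the 4 dimmest groups and 29 in the 2 brightest. Bright probes were more often lowered than lost: 18.1% of the brightest group lay at least 2-fold lower and 3.5% at least 2-fold higher with PNAs-A15, and in the next group these shares were 21.2% and 8.7%. In the dimmest group 0.6% lay lower and 20.3% higher. Control levels in that group were 5.35 to 5.96 on the log2 scale, below the lowest level detected with PNAs-A15 (6.05). Little room was left there for a lower call, so the shares by level are in part set by that floor. Placing each probe that was not detected with PNAs-A15 at the lowest detected level of that array left 2891 lower probes.

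Among genes with a single kept probe, the lowest with PNAs-A15 included genes of vesicle traffic, mitochondrial translation and nucleotide supply. CLINT1, an adaptor that links clathrin to endosomal and Golgi membranes, had a signal of 138 with PNAs-A15, against 8742 with scramble and 10120 untreated. It was not detected with PNAs-A15 and thus at least 113-fold lower than the nearer control. FUBP3, a single-stranded nucleic acid binding protein, had 137 with PNAs-A15, against 4601 with scramble and 5350 untreated, at least 58.7-fold lower. RRM2, the small subunit of ribonucleotide reductase, which makes deoxyribonucleotides, stood at 112 with PNAs-A15, against 3087 with scramble and 2952 untreated, and was at least 37.9-fold lower. Every one of these signals was in the range of undetected probes on the PNAs-A15 array and far above it on both controls. MRPS35, a protein of the small mitochondrial ribosomal subunit, was at least 35.6-fold lower (104 with PNAs-A15, against 3076 with scramble and 2753 untreated). The tyrosine kinase SRC was at least 34.3-fold lower by its kept probe (108 with PNAs-A15, against 3404 with scramble and 2648 untreated), and its other 2 probes were dim on all 3 parental arrays. TMED2, a cargo receptor of the early secretory pathway, was still detected at 186 with PNAs-A15, against 13483 with scramble and 15280 untreated, a normalized level 77.2-fold below the nearer control.

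At the other end, ANKRD1 had the greatest difference among genes with a single kept probe. It encodes a nuclear ankyrin repeat protein and is a target of YAP and TEAD factors. Its signal was 1190 with PNAs-A15, against 208 with scramble and 222 untreated, and its normalized level was 15.6-fold above the nearer control. PCED1B had 962 with PNAs-A15, against 241 with scramble and 216 untreated, 12.5-fold higher. SHFL, an interferon-induced inhibitor of viral translation, had 537 with PNAs-A15, against 186 with scramble and 185 untreated, 10.2-fold higher. For these 3 genes the deposited signals of the controls lay close together and the PNAs-A15 signal was more than 2-fold above either. The kinase gene BRSK1 (596 with PNAs-A15, against 212 with scramble and 199 untreated), TMEM139 (345 with PNAs-A15, against 165 with scramble and 160 untreated) and ADARB2 (388 with PNAs-A15, against 183 with scramble and 155 untreated) followed, with normalized levels 9.63-, 8.68- and 8.45-fold above the nearer control. The difference of ANKRD1 was 3.96 on the log2 scale after quantile normalization, 3.59 with median scaling and 2.34 on unscaled signals.

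Genes with several probes gave a way to ask whether separate stretches of a transcript moved together. Among the 2918 genes with at least 2 kept probes, 248 (8.5%) had every probe at least 2-fold lower than both controls and 75 (2.57%) had every probe at least 2-fold higher. In 952 genes some probes were lower and the others within 2-fold, in 444 some were higher and the others within 2-fold, and in 1071 no probe reached 2-fold. In 128 genes (4.39%) at least 1 probe lay 2-fold higher and at least 1 lay 2-fold lower. Of the 248 genes with all probes lower, 187 met the same rule under all 3 scalings. Of the 75 with all probes higher, 56 had every probe above both controls in the unscaled signals, 19 met the rule with median scaling and 0 on unscaled signals.

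The 10 genes lowest by their least changed probe were MRPS27, CDV3, ZFC3H1, FAM3C, AP1G1, TJP1, NMD3, OAT, USP14 and NCKAP1. MRPS27, of the small mitochondrial ribosomal subunit, had 2 probes of like behaviour. The first read 211 with PNAs-A15, against 7590 with scramble and 7005 untreated, and the second 234 with PNAs-A15, against 8497 with scramble and 8167 untreated, which put their normalized levels 31.0- and 29.2-fold below the nearer control. OAT, the mitochondrial ornithine aminotransferase, read 139 with PNAs-A15, against 2529 with scramble and 2357 untreated (at least 30.1-fold lower), and 256 with PNAs-A15, against 4441 with scramble and 4636 untreated (12.9-fold lower). Both probes of the tight junction scaffold TJP1 were low as well, at 137 with PNAs-A15, against 2434 with scramble and 2500 untreated (at least 29.3-fold lower), and at 219 with PNAs-A15, against 4136 with scramble and 4511 untreated (15.7-fold lower). The export adaptor of the large ribosomal subunit, NMD3, read 125 with PNAs-A15, against 1909 with scramble and 2748 untreated (at least 22.6-fold lower), and 185 with PNAs-A15, against 2735 with scramble and 3019 untreated (14.9-fold lower). ZFC3H1, a component of the nuclear RNA exosome targeting machinery, was undetected by either probe with PNAs-A15 and at least 25.9- and 11.4-fold lower. The clathrin adaptor subunit AP1G1 was likewise undetected by either probe and at least 11.3- and 9.09-fold lower, as was the secreted protein FAM3C, at least 10.1- and 9.18-fold lower.

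Of the 10 genes highest by their least changed probe, TCEAL3 had the greatest difference. It read 1472 with PNAs-A15, against 471 with scramble and 386 untreated, and 333 with PNAs-A15, against 215 with scramble and 197 untreated, by its second probe, so that the normalized levels lay 6.96- and 5.06-fold above the nearer control. NFKB2, the p100 precursor of the non-canonical NF-kB pathway, read 401 with PNAs-A15, against 240 with scramble and 194 untreated, and 390 with PNAs-A15, against 281 with scramble and 157 untreated. Its log2 differences from the nearer control were 2.38 and 1.95 after quantile normalization but 0.70 and 0.45 on unscaled signals. ALAS1, the first enzyme of haem synthesis, read 305 with PNAs-A15, against 209 with scramble and 188 untreated, and 312 with PNAs-A15, against 245 with scramble and 220 untreated. These genes had PNAs-A15 signals above both controls by every kept probe, with deposited signals mostly less than 2-fold apart. The others were CMTM1, CTAGE6, L3MBTL1, AVL9, TMEM187, EFL1 (a GTPase of ribosome maturation) and CDK20, with log2 differences from the nearer control of 1.69 to 2.47 by single probes. On unscaled signals the differences of the same probes were smaller, from 0.19 for a probe of CDK20 to 1.02 for a probe of TMEM187. CTAGE6 is one of a family of near-identical gene copies, so that its probes may read several of them.

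Transcripts often used as loading standards did not behave alike. ACTB, the cytoplasmic beta-actin gene, was low by all 3 probes. They read 553 with PNAs-A15, against 36068 with scramble and 21862 untreated, 2523 with PNAs-A15, against 50014 with scramble and 42904 untreated, and 8238 with PNAs-A15, against 52766 with scramble and 50028 untreated. The log2 differences from the nearer control were -4.78, -3.74 and -2.43. GAPDH, a glycolytic enzyme, read 17464 with PNAs-A15, against 34380 with scramble and 25268 untreated, 18029 with PNAs-A15, against 20554 with scramble and 14937 untreated, and 23591 with PNAs-A15, against 43017 with scramble and 33789 untreated, for differences of -0.34, 0.12 and -0.33. The ACTB probes lay 5.4- to 27.5-fold below the nearer control while those of GAPDH stayed within 1.26-fold of it. MYC, a transcription factor of cell growth, read 839 with PNAs-A15, against 10607 with scramble and 10589 untreated, and 1909 with PNAs-A15, against 7583 with scramble and 7598 untreated, for log2 differences of -2.99 and -1.39. CDKN1A, the p53-induced inhibitor of cyclin-dependent kinases, read 9408 with PNAs-A15, against 6067 with scramble and 6243 untreated, a difference of 0.91.

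Probes of one gene disagreed far more with PNAs-A15 than between the controls. The gap between a gene's highest and lowest log2 difference had a median of 1.16 for PNAs-A15 minus the mean of both controls, and it was at least 4-fold in 801 of 2918 genes (27.45%). For scramble minus untreated the median gap was 0.26 and 0 genes reached 4-fold. Restricting to genes whose probes share 1 transcript accession left 444 of 1808 genes (24.56%) with such a gap, and genes with several accessions had 357 of 1110 (32.16%). Over probes bright on the controls alone (log2 level above 8), in genes with several of them, it was 361 of 1518 (23.78%). Probe sequences and positions are not used here, so the place of each probe on its transcript is not given.

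**Figure D2:**
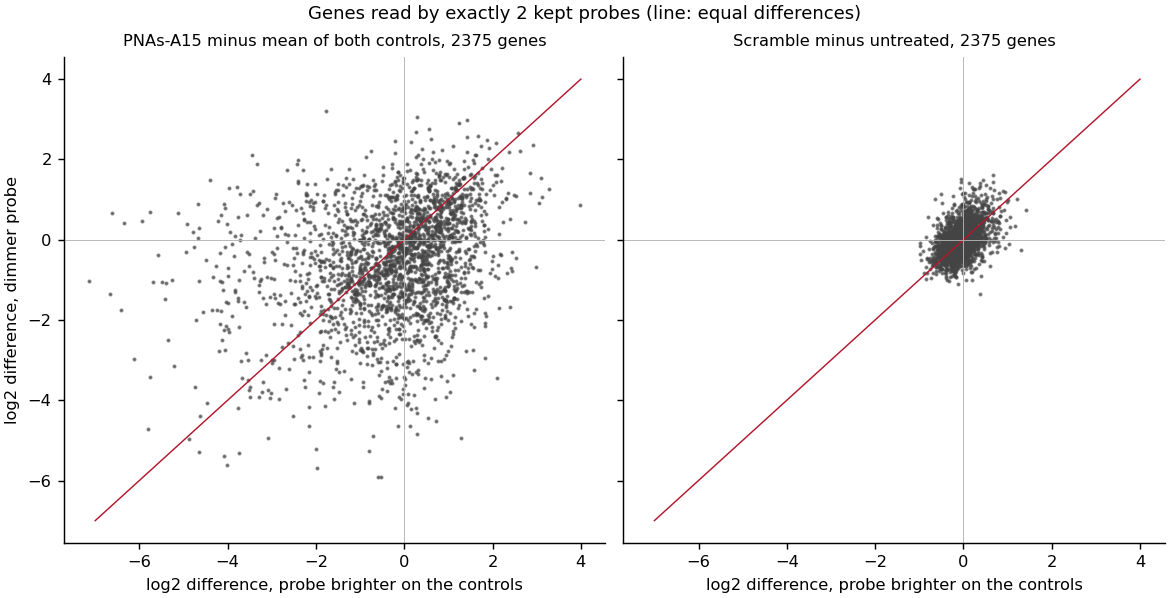
Each point is 1 of the 2375 genes read by exactly 2 kept probes, with the log2 difference of the probe brighter on the controls on the horizontal axis and that of the dimmer probe on the vertical axis, for PNAs-A15 minus the mean of both controls (left) and for scramble minus untreated (right). The red line marks equal differences. The left cloud spreads far from the line, toward the left and toward the bottom, while the right cloud stays near 0.

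The widest gap between probes called in opposite directions was in HNRNPK, a nuclear RNA-binding protein of splicing and translation. Its 4 kept probes read 122 with PNAs-A15, against 8626 with scramble and 7067 untreated (at least 96.8-fold lower), 490 with PNAs-A15, against 8105 with scramble and 9900 untreated (10.3-fold lower), 136 with PNAs-A15, against 687 with scramble and 510 untreated (at least 5.29-fold lower), and 329 with PNAs-A15, against 255 with scramble and 288 untreated (2.65-fold higher after normalization). The 3 lower probes share one transcript accession and the higher one has another. In FKBP1A, the binding protein of the drug FK506, a probe read 195 with PNAs-A15, against 11845 with scramble and 13064 untreated (60.1-fold lower), while another read 820 with PNAs-A15, against 619 with scramble and 614 untreated (2.51-fold higher). The other 2 probes of FKBP1A lay within 1.35-fold of the nearer control after quantile normalization, but at log2 differences of -0.75 and -1.12 on unscaled signals. In CPSF2, a subunit of the complex that cleaves mRNA precursors, both probes carry the same accession. One read 107 with PNAs-A15, against 1393 with scramble and 1020 untreated (at least 12-fold lower), and the other 1844 with PNAs-A15, against 1373 with scramble and 1185 untreated (2.35-fold higher). SS18, a subunit of the BAF chromatin remodelling complexes, read 134 with PNAs-A15, against 1037 with scramble and 1050 untreated (at least 11.3-fold lower), 2875 with PNAs-A15, against 3166 with scramble and 3650 untreated (log2 difference of 0.17), and 795 with PNAs-A15, against 292 with scramble and 282 untreated (6.97-fold higher), all 3 under one accession. LRRC58, SOCS4, GOLIM4 and TTC8 completed the 8 widest. Of the 128 such genes, 112 kept opposite signs on the unscaled signals, and 6 kept both 2-fold calls there.

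Unequal probes were also seen in abundant transcripts, which were picked after their values were seen. HSP90AA1, the inducible cytosolic Hsp90 chaperone, read 803 with PNAs-A15, against 29566 with scramble and 28697 untreated, by one probe and 48668 with PNAs-A15, against 46895 with scramble and 47882 untreated, by the other, for log2 differences of -4.61 and 0.08. EEF1A1, the elongation factor that delivers aminoacyl-tRNA to the ribosome, read 9143 with PNAs-A15, against 63491 with scramble and 60994 untreated, 10050 with PNAs-A15, against 63801 with scramble and 61400 untreated, 45305 with PNAs-A15, against 62263 with scramble and 61536 untreated, and 3951 with PNAs-A15, against 4494 with scramble and 4900 untreated. Its log2 differences were -2.59, -2.48, -0.38 and 0.10. The first 3 read near the top of the range on both controls, where the highest signal of any probe was 63801 with scramble and 61536 untreated (60397 with PNAs-A15), so their levels there, and the gap to the fourth, dimmer probe, may be compressed. BUB3, of the spindle checkpoint, was undetected by one bright probe (147 with PNAs-A15, against 4835 with scramble and 6183 untreated, at least 62.2-fold lower) and within 1.13-fold by its brightest (22416 with PNAs-A15, against 23438 with scramble and 23699 untreated). For these genes a single probe did not stand for the gene, and the gene groups below, which read each gene by its brightest probe, carry that limit.

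**Figure D3:**
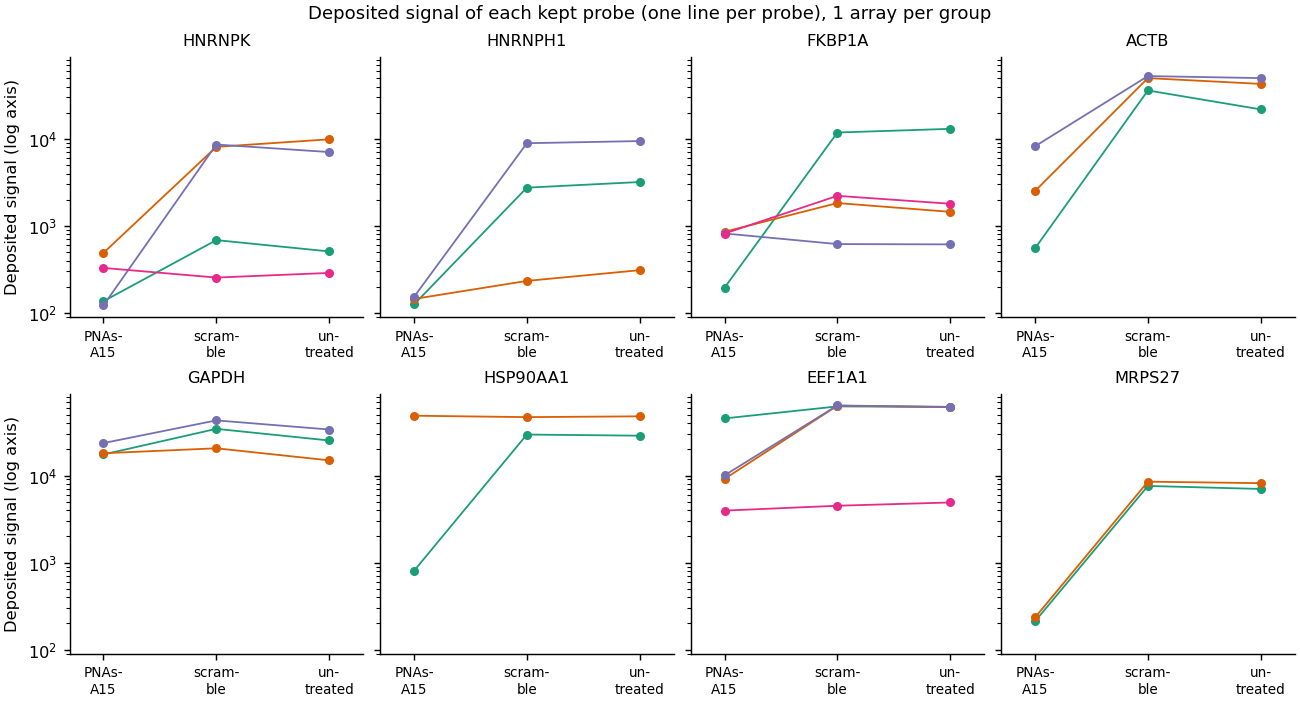
Deposited signal on a log axis for each kept probe (one line per probe) of 8 genes on the PNAs-A15, scramble and untreated parental arrays, 1 array each. The probes of ACTB and MRPS27 are all low with PNAs-A15, those of GAPDH are not, and those of HNRNPK, FKBP1A and HSP90AA1 split. Of the 4 EEF1A1 probes 3 read near the top of the range on the controls.

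Gene groups were taken from 36 lists, of which 35 had measured members. A list was described as set apart where its median lay at least 0.5 on the log2 scale from the median of all genes. On that measure 14 lists lay below and 2 above after quantile normalization, 10 below and 4 above with median scaling, and 7 below and 1 above on unscaled signals, so which lists are set apart depends on the scaling. The interferon list (0.64 from all genes after quantile normalization) was within that limit under the other scalings (0.49 with median scaling and 0.36 on unscaled signals), and the unfolded protein response and ATF4 list (0.36 after quantile normalization) passed it there (0.90 and 0.62). Counts are of genes at least 2-fold from both controls, to be read against 17.9% of all genes higher and 15.4% lower after quantile normalization. For counts under the other scalings, 1023 of all 11340 genes lay higher and 2511 lower with median scaling. On unscaled signals 196 lay higher and 2477 lower. Values in brackets are log2 differences from the nearer control, and a list median "from all genes" is its difference from the median of all genes. The lists were written with earlier results of these data known, and the counts describe them without a test.

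**Figure D4:**
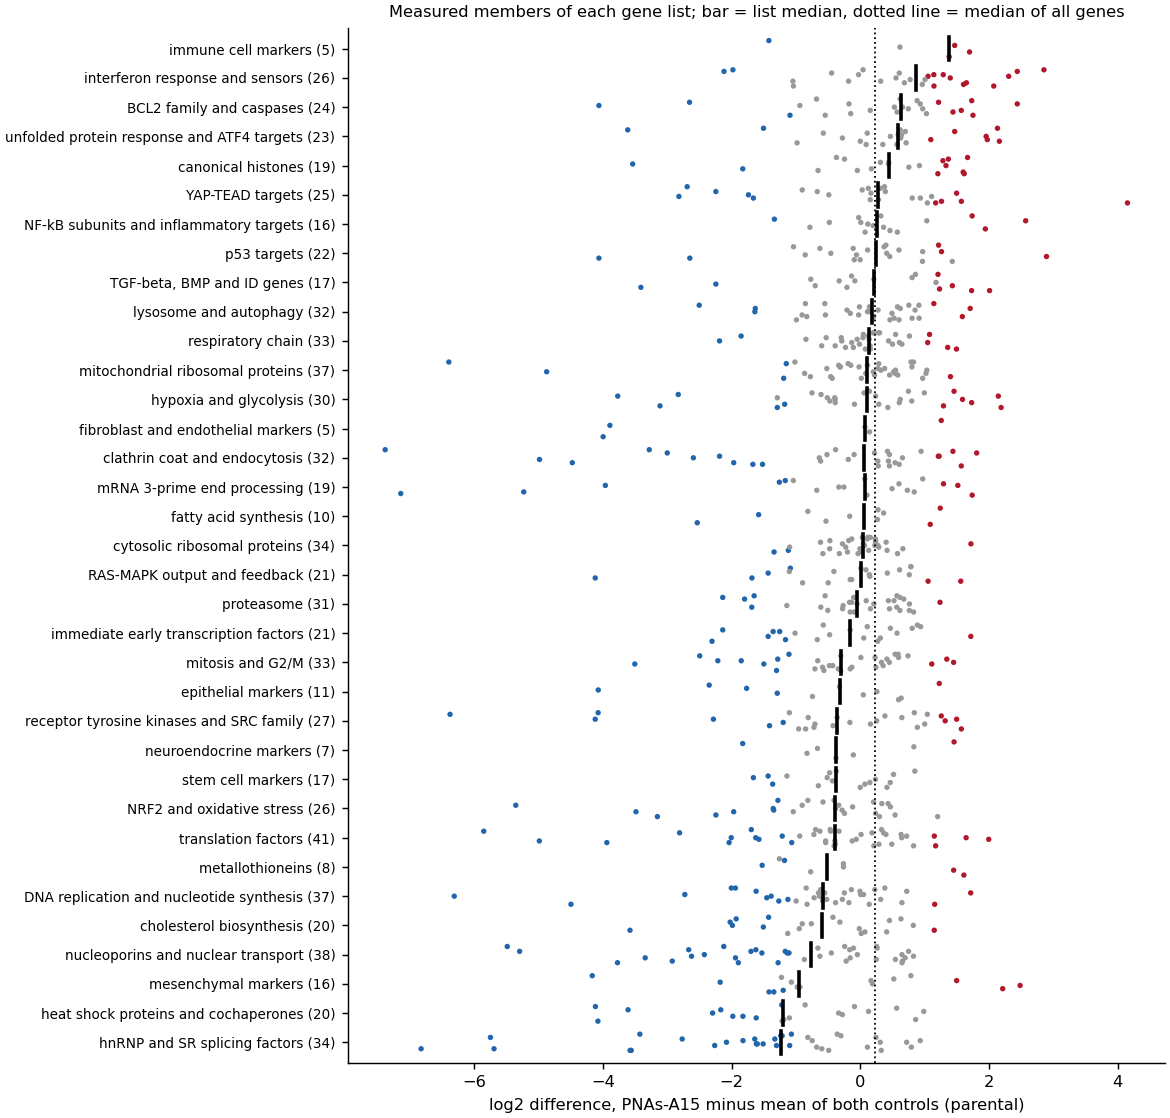
Log2 difference of PNAs-A15 minus the mean of both controls in parental cells for each measured gene of 35 lists (number measured in brackets), with the list median as a black bar and the median of all genes as a dotted line at 0.226. Red and blue points are genes at least 2-fold higher and lower than both controls. Splicing factors and heat shock proteins have the lowest medians, and interferon genes and immune cell markers the highest.

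The list with the lowest median after quantile normalization was that of hnRNP and SR proteins, which bind nascent transcripts and direct the choice of splice sites. Of 34 measured members 20 were lower and 0 higher, and the list median lay -1.45 from that of all genes (-1.16 with median scaling and -1.15 on unscaled signals). Of the 20, 17 were lower under all 3 scalings. HNRNPH1, which binds G-rich RNA, read 153 with PNAs-A15, against 8927 with scramble and 9454 untreated, by its brightest probe (107-fold lower), and 125 with PNAs-A15, against 2754 with scramble and 3197 untreated, by another (at least 33.6-fold lower). Its remaining, dim probe read 145 with PNAs-A15, against 234 with scramble and 310 untreated, and was not detected with PNAs-A15. HNRNPH2 was at least 20.7- and 5.19-fold lower by its 2 probes, and SRSF3, the smallest SR protein, read 135 with PNAs-A15, against 2737 with scramble and 3094 untreated (at least 33.4-fold lower), and 151 with PNAs-A15, against 277 with scramble and 281 untreated (log2 difference of -0.94). HNRNPA0 read 341 with PNAs-A15, against 5856 with scramble and 6363 untreated, a log2 difference of -3.47. By probe, 39 of the 64 kept were lower and 1, of HNRNPK, was higher, and in 4 of the 18 genes with several probes every probe was lower. In scramble minus untreated the list median was -0.05.

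Nucleoporins and transport receptors, which carry RNA and protein across the nuclear envelope, had 18 of 38 members lower and 0 higher, with a median -0.99 from all genes. NUP160, of the outer ring of the pore, read 158 with PNAs-A15, against 4090 with scramble and 4474 untreated, a log2 difference of -5.38. NUP153, of the nuclear basket, read 136 with PNAs-A15, against 2225 with scramble and 2321 untreated (at least 26.6-fold lower), and the import receptor IPO5 130 with PNAs-A15, against 776 with scramble and 826 untreated (at least 8.04-fold lower). SEH1L was low by all 3 probes, at 223 with PNAs-A15, against 1926 with scramble and 2321 untreated, for its brightest (log2 difference of -2.73), and NUP43 was at least 4.26-fold lower. Of the 10 members with several probes, 4 had every probe lower. KPNA2, an importin alpha, split between 147 with PNAs-A15, against 4452 with scramble and 3371 untreated (at least 44.1-fold lower), and 1517 with PNAs-A15, against 1455 with scramble and 1722 untreated (0.51). In this list 18 were lower with median scaling and 20 on unscaled signals. Over all genes the lower calls rose from 1744 to 2511 and 2477 in the same order, so the steady counts stand against a larger background.

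Translation factors had 11 of 41 members lower and 4 higher, with a median -0.62 from all genes that shrank to -0.07 with median scaling. EIF3J, a loosely bound subunit of initiation factor 3, read 164 with PNAs-A15, against 5725 with scramble and 6820 untreated (log2 difference of -5.68). EIF4B, a cofactor of the initiation helicase, read 379 with PNAs-A15, against 18097 with scramble and 16776 untreated (-4.99), and EIF3I read 492 with PNAs-A15, against 12295 with scramble and 10793 untreated (-3.88). EIF5 split, at 406 with PNAs-A15, against 4249 with scramble and 4687 untreated (-2.70), by its brightest probe and within 2-fold by the other 3. EIF3C, which has a near-identical copy in the genome, lay higher at 761 with PNAs-A15, against 428 with scramble and 417 untreated (1.94). Cytosolic ribosomal proteins differed little, with 1 of 34 higher and 2 lower and a median -0.19 from all genes, which turned to 0.74 with median scaling and 0.34 on unscaled signals. Mitochondrial ribosomal proteins had 1 of 37 higher and 4 lower, among them MRPS35 and MRPS27 above.

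Factors that cleave and polyadenylate mRNA precursors did not lie apart as a list (5 of 19 lower, 3 higher, median -0.16 from all genes) but held some of the lowest single genes. NUDT21, a subunit of cleavage factor I that sets the choice of poly(A) site, read 114 with PNAs-A15, against 4720 with scramble and 5899 untreated, and was at least 60.2-fold lower. Its second probe was dim throughout, at 111 with PNAs-A15, against 185 with scramble and 175 untreated. PABPN1, the nuclear poly(A) binding protein, read 176 with PNAs-A15, against 6102 with scramble and 4785 untreated (-5.09), and CPSF6, the partner of NUDT21, 114 with PNAs-A15, against 649 with scramble and 795 untreated (at least 6.44-fold lower). CPSF1, the large subunit of the cleavage complex, lay higher at 6209 with PNAs-A15, against 2702 with scramble and 2525 untreated, a log2 difference of 1.74 that was 1.20 on unscaled signals.

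Heat shock proteins, which fold other proteins and are induced by heat shock factor HSF1 under stress, had 9 of 20 members lower and 0 higher. The median was -1.43 from all genes, -1.05 with median scaling and -1.15 on unscaled signals. STIP1, which couples Hsp70 to Hsp90, read 353 with PNAs-A15, against 9814 with scramble and 8634 untreated, a log2 difference of -4.08. DNAJB1, an Hsp40 cochaperone, read 188 with PNAs-A15, against 2990 with scramble and 3258 untreated (-3.97), and the inducible Hsp70 gene HSPA1B 1163 with PNAs-A15, against 19478 with scramble and 22522 untreated (-3.45). HSPA1B has a near-identical neighbour copy, HSPA1A, and its probe may read both. The probe that stood for HSPA1A lay at -0.995, just short of a 2-fold call. CHORDC1, a cochaperone of Hsp90, read 219 with PNAs-A15, against 1161 with scramble and 1674 untreated (-1.95), and DNAJB6 687 with PNAs-A15, against 3938 with scramble and 4746 untreated (-1.80), by one probe and 130 with PNAs-A15, against 2584 with scramble and 2679 untreated (at least 31.3-fold lower), by the other. HSPA8, the constitutive Hsp70, was lower by both probes, at 14152 with PNAs-A15, against 35227 with scramble and 39168 untreated (-1.09), and 7284 with PNAs-A15, against 31254 with scramble and 30950 untreated (-1.80). HSPD1, the mitochondrial chaperonin, split between 1798 with PNAs-A15, against 21585 with scramble and 19927 untreated (-3.01), and 42170 with PNAs-A15, against 49728 with scramble and 47266 untreated (-0.08), as HSP90AA1 did.

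The promoters of this list were searched for one form of the heat shock element on both strands. It reads GAA, NN, TTC, NN and GAA without a break, and its reverse starts and ends with TTC. Matches may overlap each other. Of 27305 RefSeq promoter windows 120 (0.439%) held it, against 4 of the 20 list windows, those of HSPA6, HSPA8, DNAJB6 and CHORDC1. Each of these genes lay at least 2-fold lower than both controls by the probe that stood for it. HSPA6 was at -1.77, and at -0.98 on unscaled signals. The windows of STIP1 (-4.08), DNAJB1 (-3.97), HSPA1B (-3.45), DNAJB4 (-1.74) and HSP90AB1 (-1.46) held no match, and these genes were lower too. The other measured members whose windows held no match were within 2-fold. Whether the element goes with the lower level was not tested. The windows of 250 bases before the start of HSPA8, CHORDC1 and DNAJB6 are shown because they carry that element, in capitals where the motif matches. They are from the RefSeq annotation of GRCh38.p14 and 5′ to 3′ on the strand of the gene. They lie at chr11:123062137-123062386 on the minus strand for HSPA8, chr11:90223050-90223299 on the minus strand for CHORDC1 and chr7:157336754-157337003 on the plus strand for DNAJB6. In CHORDC1 the matches overlap. A match of letters is no evidence of binding, and the motif and genes were chosen with the results known.
HSPA8: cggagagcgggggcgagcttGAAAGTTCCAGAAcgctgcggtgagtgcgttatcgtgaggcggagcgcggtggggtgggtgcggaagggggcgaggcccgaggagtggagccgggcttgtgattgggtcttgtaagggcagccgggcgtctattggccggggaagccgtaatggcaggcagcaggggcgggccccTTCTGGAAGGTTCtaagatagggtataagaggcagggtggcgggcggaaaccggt
CHORDC1: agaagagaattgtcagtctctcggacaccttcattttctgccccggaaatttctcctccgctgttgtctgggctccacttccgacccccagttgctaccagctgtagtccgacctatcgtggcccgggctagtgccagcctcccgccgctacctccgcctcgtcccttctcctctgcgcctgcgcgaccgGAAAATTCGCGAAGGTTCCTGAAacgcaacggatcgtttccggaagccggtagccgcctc
DNAJB6: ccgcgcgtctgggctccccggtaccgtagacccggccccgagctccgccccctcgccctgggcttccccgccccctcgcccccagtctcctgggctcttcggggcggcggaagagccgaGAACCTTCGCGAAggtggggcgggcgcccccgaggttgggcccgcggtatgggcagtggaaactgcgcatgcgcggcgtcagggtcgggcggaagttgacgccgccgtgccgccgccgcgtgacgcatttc

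Genes of DNA replication and nucleotide synthesis had 10 of 37 members lower and 2 higher, with a median -0.81 from all genes (-0.60 under each of the other scalings). Beside RRM2, UHRF1, which recruits the maintenance DNA methyltransferase, read 378 with PNAs-A15, against 12508 with scramble and 12576 untreated (-4.45), and POLD3, of DNA polymerase delta, 156 with PNAs-A15, against 768 with scramble and 692 untreated (-2.70). ORC1 of the origin recognition complex read 206 with PNAs-A15, against 1209 with scramble and 882 untreated (-1.80), and the DNA ligase LIG1 287 with PNAs-A15, against 2035 with scramble and 1406 untreated (-1.70). Here too bright genes split by probe. MCM4 of the replicative helicase read 119 with PNAs-A15, against 2636 with scramble and 2500 untreated (at least 32-fold lower), by one probe and 2043 with PNAs-A15, against 4755 with scramble and 4087 untreated (-0.43), by the other. Of the 11 members with several probes, 0 had all of them lower.

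Genes of mitosis had 8 of 33 members lower and 3 higher, with a median -0.53 from all genes that shrank to -0.21 with median scaling. The checkpoint protein MAD2L1 read 308 with PNAs-A15, against 4820 with scramble and 5277 untreated (-3.40), and within 2-fold by a dim second probe. The motor KIF23 of the central spindle read 439 with PNAs-A15, against 3753 with scramble and 4158 untreated (-2.39), and the spindle assembly factor TPX2 497 with PNAs-A15, against 3907 with scramble and 3532 untreated (-2.17). KIF11, the kinesin that separates spindle poles, was lower by both probes (766 with PNAs-A15, against 3962 with scramble and 4827 untreated, and 543 with PNAs-A15, against 3476 with scramble and 3642 untreated). CDC20, an activator of the anaphase-promoting complex, lay the other way at 21592 with PNAs-A15, against 13070 with scramble and 11796 untreated (1.09), as did KIF2C at 1501 with PNAs-A15, against 1011 with scramble and 965 untreated (1.43). Neither reached 2-fold on unscaled signals.

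Enzymes and regulators of cholesterol biosynthesis, controlled by SREBP2, had 6 of 20 members lower and 1 higher, with a median -0.82 from all genes (-1.02 with median scaling). INSIG1, which retains the SREBP complex in the endoplasmic reticulum and is itself a target, read 426 with PNAs-A15, against 6244 with scramble and 9839 untreated (-3.20), and 116 with PNAs-A15, against 415 with scramble and 385 untreated (at least 3.58-fold lower). Squalene epoxidase SQLE was also lower by both probes, at 840 with PNAs-A15, against 4068 with scramble and 6237 untreated (-1.57), and 127 with PNAs-A15, against 698 with scramble and 880 untreated (at least 7.06-fold lower). LSS read 282 with PNAs-A15, against 1778 with scramble and 1607 untreated (-1.96), mevalonate kinase MVK was at least 2.32-fold lower and MVD at least 2.23-fold. FDPS lay higher, at 3206 with PNAs-A15, against 2312 with scramble and 1986 untreated (1.08).

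NRF2 targets and antioxidant genes had 8 of 26 members lower and 0 higher, with a median -0.62 from all genes (-0.24 with median scaling). HMOX1, the inducible haem oxygenase, read 113 with PNAs-A15, against 1740 with scramble and 1574 untreated (at least 19.5-fold lower). The mitochondrial peroxidase PRDX3 was lower by both probes, at 777 with PNAs-A15, against 12087 with scramble and 14310 untreated (-3.31), and 475 with PNAs-A15, against 11709 with scramble and 10630 untreated (-3.90). NFE2L2, which encodes NRF2, read 420 with PNAs-A15, against 5155 with scramble and 6490 untreated (-2.94), PGD of the pentose phosphate pathway 2586 with PNAs-A15, against 17828 with scramble and 15906 untreated (-2.21), and GCLC of glutathione synthesis 421 with PNAs-A15, against 2570 with scramble and 2814 untreated (-1.85).

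Genes of clathrin coats and endocytosis lay on both sides, with 10 of 32 lower and 5 higher and a median -0.16 from all genes. Beside CLINT1 and AP1G1, the early endosome GTPase RAB5A read 122 with PNAs-A15, against 1452 with scramble and 1527 untreated (at least 16.4-fold lower), and PICALM 230 with PNAs-A15, against 2966 with scramble and 2689 untreated (-3.25). AP2B1, of the plasma membrane adaptor, was at least 3.62- and 3.50-fold lower by its 2 probes. ITSN1, a scaffold of coated pits, split. It lay higher by its brighter probe, at 1752 with PNAs-A15, against 894 with scramble and 900 untreated (1.75). Its other kept probe lay lower (-1.37, and -0.81 on unscaled signals), so that its probes were called in opposite directions. Of the 13 members with several probes, 4 had every probe lower.

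Receptor tyrosine kinases, SRC family and JAK kinases had 6 of 27 members lower and 4 higher, with a median -0.59 from all genes (-0.14 under each of the other scalings). Beside SRC, JAK1 read 139 with PNAs-A15, against 1148 with scramble and 1128 untreated (at least 12.7-fold lower), the ephrin receptor EPHA4 175 with PNAs-A15, against 2225 with scramble and 3005 untreated (-3.84), and JAK2 was at least 1.78-fold lower. EGFR, the epidermal growth factor receptor, lay higher by both kept probes, at 994 with PNAs-A15, against 645 with scramble and 668 untreated (1.47), and 422 with PNAs-A15, against 286 with scramble and 292 untreated (1.81). On unscaled signals these were 0.56 and 0.51. The list of RAS-MAPK output held 4 of 21 lower and 2 higher, and that of immediate early factors 6 of 21 lower and 1 higher, MYC being in both.

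Interferon-stimulated genes and sensors of foreign RNA, which take part in antiviral defence, made up the larger of the 2 lists set apart upward. It counted 11 higher and 2 lower genes among 26 measured, and its median lay 0.64 from all genes, 0.49 with median scaling and 0.36 on unscaled signals. The median itself was 0.87, 0.34 and -0.04 in the same order, and of the 11 higher genes 2, IFI6 and IFITM1, were 2-fold higher under all 3 scalings. IFI6, an interferon-induced membrane protein, read 12059 with PNAs-A15, against 2897 with scramble and 2912 untreated (2.39), and 207 with PNAs-A15, against 423 with scramble and 384 untreated (-0.30), by a dimmer probe. IFITM1, which restricts viral entry, read 642 with PNAs-A15, against 247 with scramble and 259 untreated (2.70), and the transcription factor IRF1 763 with PNAs-A15, against 348 with scramble and 377 untreated (2.14). IFIT1 read 254 with PNAs-A15, against 182 with scramble and 189 untreated, with a log2 difference of 1.92 that was 0.40 on unscaled signals. Some calls rest on the normalization alone: MX1 read 286 with PNAs-A15, against 286 with scramble and 272 untreated, and was called higher at 1.25. IRF9, a transcription factor, lay lower at 237 with PNAs-A15, against 1444 with scramble and 1397 untreated (-2.09), as did OAS3 at 264 with PNAs-A15, against 1591 with scramble and 1489 untreated (-1.98). OAS1 had 4 probes between -1.86 and 1.6. In scramble minus untreated the list median was -0.07.

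A core of the interferon-stimulated response element, which reads GAAA, NN and GAAA without a break (reverse TTTC, NN and TTTC) and was searched on both strands with overlapping matches counted, was present in 839 of 27305 windows (3.07%) and in 14 of the 26 list windows. Among higher genes the windows of IFI6, IFIT1, IFITM1, ISG20 and IFIH1 held a match, and those of MX1, IRF1 and IFI35 held none. Of the lower genes OAS3 had a match and IRF9 none. Genes with a match that lay within 2-fold were IFIT3, IFITM3, IFI44, IFI44L, ISG15, BST2 and DDX60. Whether the element goes with the level was not tested. The promoters of 2 genes that lay higher and 1 that lay lower, all with a match, are shown in the same form to set that element beside both directions. They lie at chr1:27672193-27672442 on the minus strand for IFI6, chr10:89392373-89392622 on the plus strand for IFIT1 and chr12:112938224-112938473 on the plus strand for OAS3.
IFI6: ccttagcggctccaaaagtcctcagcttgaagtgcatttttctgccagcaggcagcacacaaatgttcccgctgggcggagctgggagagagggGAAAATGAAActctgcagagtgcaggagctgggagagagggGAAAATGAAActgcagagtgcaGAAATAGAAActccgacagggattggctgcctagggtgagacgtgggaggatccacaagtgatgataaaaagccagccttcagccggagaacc
IFIT1: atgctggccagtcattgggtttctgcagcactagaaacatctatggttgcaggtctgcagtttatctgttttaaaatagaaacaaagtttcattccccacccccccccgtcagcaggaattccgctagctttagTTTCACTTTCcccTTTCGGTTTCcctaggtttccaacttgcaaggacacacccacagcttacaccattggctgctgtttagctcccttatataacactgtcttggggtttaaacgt
OAS3: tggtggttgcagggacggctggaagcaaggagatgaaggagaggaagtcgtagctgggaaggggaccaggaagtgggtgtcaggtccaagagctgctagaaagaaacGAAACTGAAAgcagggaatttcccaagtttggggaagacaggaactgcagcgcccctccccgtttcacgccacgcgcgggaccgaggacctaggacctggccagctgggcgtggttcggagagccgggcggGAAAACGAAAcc

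Genes of the unfolded protein response and of ATF4, which are induced by stress of the endoplasmic reticulum or amino acid shortage, had 6 of 23 members higher and 2 lower, with a median 0.36 from all genes (0.90 with median scaling and 0.62 on unscaled signals). TRIB3, a pseudokinase and ATF4 target, read 9359 with PNAs-A15, against 3210 with scramble and 2486 untreated (1.98), and the transcription factor CEBPB 19698 with PNAs-A15, against 6117 with scramble and 6665 untreated (1.85). Both kept at least 1.54 on unscaled signals. DDIT3, the stress factor CHOP, read 627 with PNAs-A15, against 383 with scramble and 363 untreated (1.94), and SESN2 281 with PNAs-A15, against 208 with scramble and 185 untreated (2.09), whose differences were 0.69 and 0.41 on unscaled signals. VLDLR was at least 8.18-fold lower, and XBP1, a splicing target of the stress sensor IRE1, read 1759 with PNAs-A15, against 6871 with scramble and 8126 untreated (-1.34).

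Among p53 targets 3 of 22 were higher and 2 lower. GDF15, a stress cytokine, read 2565 with PNAs-A15, against 703 with scramble and 563 untreated (2.77, and 1.84 on unscaled signals), whereas the pro-apoptotic BAX read 151 with PNAs-A15, against 1541 with scramble and 1380 untreated (-4.03), and within 2-fold by a dim second probe. TIGAR read 202 with PNAs-A15, against 1400 with scramble and 1552 untreated (-2.51). GADD45A read 1926 with PNAs-A15, against 1367 with scramble and 1313 untreated (1.24), by one probe and 626 with PNAs-A15, against 1527 with scramble and 1277 untreated (-0.26), by the other. BCL2 family members and caspases had 6 of 24 higher and 3 lower, with a median 0.41 from all genes that was 0.21 with median scaling and 0.15 on unscaled signals. Median scaling left 3 above and 5 below, and unscaled signals 0 above and 5 below. HRK, a BH3-only activator of apoptosis, read 761 with PNAs-A15, against 384 with scramble and 299 untreated (2.27), and BCL2L11, which encodes BIM, was higher by both kept probes (363 with PNAs-A15, against 296 with scramble and 264 untreated, and 236 with PNAs-A15, against 182 with scramble and 203 untreated). Cytochrome c, CYCS, was at least 5.35-fold lower.

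Of the hypoxia and glycolysis genes 6 of 30 were higher and 5 lower, shares near those of all genes, with 3 higher and 6 lower under median scaling and 1 higher and 7 lower on unscaled signals, so the counts set the list apart in neither direction. The glucose transporter SLC2A3 read 22326 with PNAs-A15, against 6624 with scramble and 6322 untreated (2.15), and VEGFA 832 with PNAs-A15, against 388 with scramble and 435 untreated (1.99), with a second probe at 224 with PNAs-A15, against 195 with scramble and 216 untreated. In the other direction the collagen prolyl hydroxylase P4HA1 read 429 with PNAs-A15, against 5261 with scramble and 6276 untreated (-2.95), PGAM1 244 with PNAs-A15, against 6135 with scramble and 2994 untreated (-3.26), and PFKFB3 277 with PNAs-A15, against 2963 with scramble and 2686 untreated (-2.80), with a second, dim probe of PFKFB3 at 276 with PNAs-A15, against 404 with scramble and 352 untreated (0.52).

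Mesenchymal markers had 5 of 16 lower and 3 higher, with a median -1.19 from all genes that was -0.40 on unscaled signals. The repressor SNAI2 was at least 7.33- and 2.98-fold lower by its 2 probes and ZEB2 at least 3.71-fold, whereas the smooth muscle actin ACTA2 read 2547 with PNAs-A15, against 718 with scramble and 891 untreated (2.24), and the basement membrane collagen COL4A1 1309 with PNAs-A15, against 559 with scramble and 578 untreated (2.10). Both ACTA2 and COL4A1 were higher under all 3 scalings, ACTA2 in the direction opposite to ACTB. VIM, a mesenchymal intermediate filament, read 8598 with PNAs-A15, against 29739 with scramble and 25538 untreated (-1.35), and 10554 with PNAs-A15, against 22923 with scramble and 22357 untreated (-0.78). Of TGF-beta and BMP genes 5 of 17 were higher and 2 lower, with 3 higher and 2 lower under median scaling and 0 higher and 3 lower on unscaled signals. SMAD4 read 226 with PNAs-A15, against 2586 with scramble and 3428 untreated (-3.15), and the BMP targets ID1 and ID3 read 1610 with PNAs-A15, against 981 with scramble and 783 untreated (1.6), and 1837 with PNAs-A15, against 1290 with scramble and 1048 untreated (1.32). YAP-TEAD targets had 5 of 25 on either side, ANKRD1 above and the coactivator WWTR1 (TAZ), at least 3.29-fold lower, among them.

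Other lists set apart downward after quantile normalization were epithelial markers (4 of 11 lower, 1 higher, median -0.55 from all genes), with KRT19 at 3066 with PNAs-A15, against 16571 with scramble and 12072 untreated (-1.58), stem cell markers (3 of 17 lower, 0 higher, -0.60), metallothioneins (2 of 8 on either side, -0.74) and neuroendocrine markers (1 of 7 on either side, -0.60). With median scaling and on unscaled signals the medians from all genes were -0.94 and -0.40 for epithelial markers, -0.44 and -0.30 for stem cell markers, -0.80 and -0.65 for metallothioneins and -0.26 and -0.52 for neuroendocrine markers, and 0 members of these 4 lists were higher under either. Canonical histones had 7 of 19 higher and 2 lower, and 0 of the 7 were 2-fold higher on unscaled signals. The respiratory chain, proteasome, lysosome, fatty acid and NF-kB lists lay within 0.3 of all genes after quantile normalization. Immune cell markers had 3 of 5 higher and 1 lower, with a median 1.16 from all genes (1 higher and 0.79 with median scaling, 0 higher and 0.48 on unscaled signals), and a summed signal of 6424 with PNAs-A15, against 3721 with scramble and 3082 untreated. The sum is mostly CD68, a lysosomal protein that carcinoma cells also express, at 5445 with PNAs-A15, against 2731 with scramble and 2085 untreated. CD14 read 498 with PNAs-A15, against 414 with scramble and 403 untreated, while PTPRC and CD3E were not detected on at least 2 arrays. Of the fibroblast and endothelial list COL3A1 read 252 with PNAs-A15, against 4500 with scramble and 6043 untreated (-3.74), and LUM was at least 5.80-fold lower, while the endothelial PECAM1 and CDH5 were below the detection limit. Of the 14 lung airway and alveolar markers 0 were measured.

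Calls were spread over all chromosomes but not evenly. On chromosome 19, 23% of the kept probes with a known gene lay higher and 10.2% lower, with a median of PNAs-A15 minus the mean of both controls of 0.46, and chromosomes 22 and 16 had 20.6% and 19.9% higher and 10.6% and 12.6% lower. Chromosome 18 had the reverse, with 10.3% higher and 25.8% lower and a median of -0.17, followed by chromosome 13 with 24.6% lower. Chromosomes 19 and 18 kept the highest and lowest medians with median scaling (0.00 and -0.55) and on unscaled signals (-0.25 and -0.73). The medians of scramble minus untreated were not level either, at 0.14 on chromosome 19 and -0.11 on chromosome 18, and on chromosomes 13, 4 and 5 they were -0.20, -0.14 and -0.12, further from 0 than the PNAs-A15 medians there (0.01, -0.05 and -0.05). In CSC-rich cells PNAs-A15 minus the mean of both controls had medians of 0.16 on chromosome 19, 0.13 on chromosome 22, -0.17 on chromosome 18 and -0.28 on chromosome 13, so a difference between these chromosomes was not particular to the parental PNAs-A15 array. Gene length went with the lower calls as well. Over 5 equal groups by genomic length, the share of probes lower was 13.4% in the shortest genes, then 16.7%, 21.4%, 23.5% and, in the longest, 23%. The part of base composition, which goes with both chromosome and length, was not tested.

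**Figure D5:**
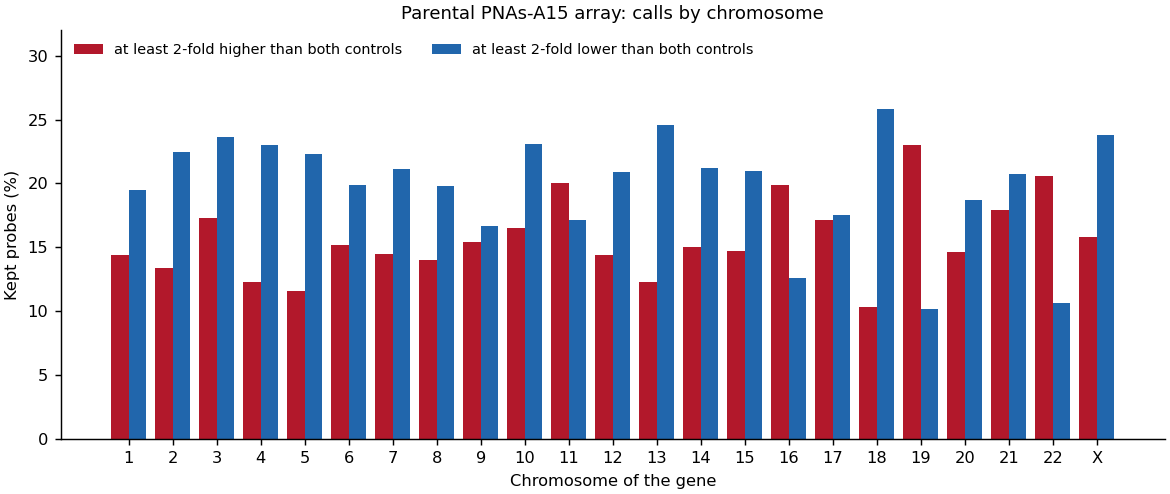
Share of kept probes (vertical axis, percent) at least 2-fold higher (red) and lower (blue) than both controls on the parental PNAs-A15 array, by the chromosome of the gene. Chromosomes 16, 19 and 22 have more higher than lower probes by a wide margin, and chromosomes 4, 5, 13 and 18 the reverse.

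In CSC-rich cells given PNAs-A15 the same rule called far fewer probes. Of 19188 probes 36 (0.188%) lay higher and 22 (0.115%) lower than both CSC-rich controls, by gene 0.142% and 0.071%, and 0 genes had every one of several probes in either direction. The gap between a gene's probes was at least 4-fold in 6 of 2812 genes (0.21%). The controls there were less alike than in parental cells, which can limit calls against both, so shares against single controls are given too. The part of this in the lower count was not tested. PNAs-A15 over scramble gave 8.87% of probes higher and 3.18% lower, PNAs-A15 over untreated 0.255% and 0.214%, and scramble over untreated 0.834% and 4.94%. For parental cells PNAs-A15 over scramble gave 20.1% and 21.4%, and PNAs-A15 over untreated 19.6% and 21%. In CSC-rich cells 3.22% of probes detected on both controls were not detected with PNAs-A15, against 17.4% in parental cells, and the same share was 8.44% for the CSC-rich scramble array and 1.48% for the untreated one. CLINT1 lay at -0.72 against scramble and -0.16 against untreated in CSC-rich cells, ANKRD1 at -0.43 and 0.20, and the 3 ACTB probes at 0.15 to 2.62 against scramble and 0.12 to 0.62 against untreated. Of 17987 probes kept in both populations, 10 were called in the same direction. Among the named ones ZNF121 was detected with PNAs-A15 in neither population and was at least 4.28-fold lower in parental and at least 3.42-fold lower in CSC-rich cells. PHLDB2 and REEP3 were not detected with PNAs-A15 in parental cells, where the bounds were at least 1.2- and 1.45-fold lower, and lay at -1.12 and -1.21 in CSC-rich cells. A probe of NFKB2 lay at 1.95 in parental and 1.08 in CSC-rich cells, and one of PLAUR at 1.03 and 1.13. The deposited parental signals of PLAUR, 566 with PNAs-A15, against 594 with scramble and 387 untreated, do not lie above both controls. The difference between the populations was not tested, since each has 1 array per treatment.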

How the data were processed

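The 6 arrays, 1 per group, were grouped by their labels. The deposited intensity values are linear bead signals of 47323 probes, each with a deposited detection p-value. GenomeStudio 2011.1 is named in the submitters' processing notes, with no settings. Array medians differ and no deposited intensity is at or below 0, and the deposited series matrix equalled these values in 100% of cells.

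Background was removed by limma's normexp fit (limma 3.58.1, R 4.3.3; negative controls inferred from the deposited detection p-values, offset 16), then the 6 arrays were brought to one distribution by quantile normalization, on the log2 scale. The deposited files hold no log2 values. The filter required a detection p below 0.05 on 2 or more parental arrays. The second lowest detection p was 0.0494 for the last probe kept and 0.0506 for the first left out. The platform annotation gave 1 symbol to 30113 probes and several to 8, and does not list the other 17202, which carry no name here. Identifiers of 30074 probes matched NCBI's RefSeq gene table of GRCh38.p14, which changed 0 symbols and gave chromosome, gene length and promoter sequence.

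A probe was called where PNAs-A15 lay at least 2-fold beyond the nearer control. The kept probe with the highest mean over the 3 parental arrays stood for its gene. A probe not detected with PNAs-A15 is given as at least N-fold lower, from the nearer control's level and the higher of its own level and the lowest detected level of that array. No test was run, as each group has 1 array and the controls are different conditions. With 1 array per group the precision cannot be estimated.

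Genes were named by rule: the 10 highest and 10 lowest with several probes called alike, 6 highest and 6 lowest with 1 kept probe, 8 with the widest opposite gap, up to 5 members of a list with the greatest difference, and 13 fixed genes. Named besides, after their values were seen, were HSP90AA1, EEF1A1, BUB3, HSPA8, HSPD1, KPNA2, MCM4, IFIT1, MX1, OAS1, EGFR, EIF3C, FDPS, CDC20, KIF2C, ITSN1 and XBP1. HSPA6, HSPA1A, DNAJB4 and HSP90AB1 were named in the same way. So were ISG20, IFIH1, IFI35, IFIT3, IFITM3, IFI44, IFI44L, ISG15, BST2 and DDX60. The members, lists and motifs were chosen with earlier results of these data known. The scripts (Python 3.11.15, pandas 2.3.3, numpy 2.4.6, matplotlib 3.10.9) were tested on simulated data, in which only a small set of probes, all bright on the controls, was changed. That test does not cover an array with as many differences as the PNAs-A15 array. Alternatives were other scalings, offsets, detection filters, single controls, thresholds and probe rules.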

Additional observations from a re-analysis of the deposited data

Results flagged for a closer look

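Of the 17987 probes kept in both populations, 12 were at least 2-fold beyond both controls in opposite directions in parental and CSC-rich cells given PNAs-A15, and 7 of these carry a gene name. Against the nearer control, CTSL lay at -2.93 in parental and 1.02 in CSC-rich cells by 1 of its 3 probes, TSPAN4 at -2.87 and 1.27, AP1S1 at -2.05 and 1.04, BAIAP2 at -1.97 and 1.27, EGFLAM at -1.79 and 1.11 and LINC01089 at -1.18 and 1.07. TAF8 lay at 2.43 in parental and -1.02 in CSC-rich cells. With PNAs-A15, TSPAN4, AP1S1, BAIAP2 and LINC01089 were not detected in parental cells and TAF8 was not in CSC-rich cells, so these differences can exceed what the signal supports. The bounds were at least 3.72-fold lower for TSPAN4, 1.89-fold for AP1S1, 2.51-fold for BAIAP2 and 1.07-fold for LINC01089 in parental cells, and 1.37-fold lower for TAF8 in CSC-rich cells. The difference between the populations was not tested, with 1 array per group. The other 2 kept probes of CTSL lay at 0.08 and 0.05 in parental cells. With PNAs-A15, scramble and nothing the CTSL probe read 245, 3779 and 2421 in parental cells and 1161, 202 and 658 in CSC-rich cells.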

How the results depend on the processing

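Counts against both controls that moved by over 1.5 times are given by setting, beside the 3187 higher and 3620 lower probes, 2031 higher and 1744 lower genes, 75 and 248 genes with every probe higher and lower and 128 with opposite probes. Median scaling gave 1408 higher probes, 1023 higher genes, and 27 and 412 genes with every probe higher and lower. Signals without correction or scaling gave 256 higher probes, 196 higher genes, 0 and 392 genes with every probe higher and lower, and 9 opposite genes. Centring those differences on the median probe gave 973, 732, 14 with every probe higher and 16 opposite. Without background correction there were 1659 higher and 2170 lower probes, 1189 and 1158 genes, 33 and 137 genes with every probe alike and 33 opposite. An offset of 50 left 75 opposite genes. Detection on all 3 arrays, which removes probes lost with PNAs-A15, left 1850 lower probes, 1039 lower genes, 97 with every probe lower and 45 opposite. Without a filter 48 genes had every probe higher. Scramble alone as control gave 214 opposite genes, and untreated alone 121 with every probe higher. A 3-fold threshold gave 913 and 2124 probes, 609 and 1012 genes, 11 and 111 genes with every probe alike and 21 opposite. At 1.5-fold 5729 probes and 3586 genes were higher, 218 and 451 genes had every probe higher and lower and 385 were opposite. Beyond what these settings do by construction, the cause was not tested.

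List medians relative to all genes moved less than the SD per control array (0.243) in 447 comparisons with a setting and further in 77. They turned once, for stem cell markers (0.02 without a filter, against -0.60). Values of the named probes moved less than that SD in 2042 comparisons and further in 934. These totals include settings that could not move them. A change of filter leaves a probe's value as it is, and centring shifts all normalized differences by less than that SD. Of 235 probes 208 moved further on unscaled signals, 156 without background correction, 146 with median scaling and 103 with an offset of 50. With scramble or untreated alone as control 41 and 58 did. The value of 1 probe turned, the dim second probe of NUDT21, at 0.04 with undetected probes set at their bound, in place of -1 in the reported setting. That bound and the choice of a gene's probe by its control level were added after the data were seen. No paired analysis was possible because the labels give 1 array per group and no replicate numbers. Signal over background limits every probe that PNAs-A15 left undetected: its normalized difference can exceed what the signal supports, and the at-least fold is the limit.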

Other observations

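Other genes whose several probes were all at least 2-fold beyond both controls, described here as values only and picked after they were seen, included ACSS2, which makes acetyl-CoA from acetate, higher at 1.20 and 1.31 on the log2 scale against the nearer control, and ANGPTL4, a secreted inhibitor of lipoprotein lipase, higher at 1.06 and 2.84. Both are given after quantile normalization only. On unscaled signals 0 of the 75 genes with every probe higher met the 2-fold rule. ACAP2, an ARF6 GTPase-activating protein, was lower by 3 probes, between -4.06 and -3.22, and the shedding protease ADAM10 by 2, at -2.35 and -1.61.

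Across the 19602 probes kept in parental cells, the parental difference (PNAs-A15 minus the mean of both controls) had a Pearson r of 0.20 with CSC-rich scramble minus CSC-rich untreated and of 0.08 with CSC-rich PNAs-A15 minus CSC-rich untreated. These share no array with the parental difference but share the CSC-rich untreated array with each other, and probes are not independent replicates. The CSC-rich scramble array had the second lowest share of detected probes, at 38.5%, after the parental PNAs-A15 array at 36.5%.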
